A study of Mus musculus with 26 samples.

Results

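The 30 genes described here act in the G2 phase and in mitosis, and were taken by symbol from the gene bodies over which RNA Polymerase II (Pol II) was measured in regenerating mouse liver. All 30 were found among 20933 measured genes, and Cdc2a is the older symbol of Cdk1. The genes were listed by function with earlier results of these data known, though their Pol II values did not enter the choice by any rule. The tissue was liver of wild-type male C57BL6/J mice, 7 weeks of age, in which partial hepatectomy removed 3 of 5 lobes. The removed tissue was the 0 h sample, and the regrowing liver was sampled after 3, 8, 16, 24, 36, 48 and 168 h. Chromatin immunoprecipitation with sequencing (ChIP-seq), which recovers the DNA that a chosen protein occupies, was made for Pol II, C/EBPalpha and C/EBPbeta at the 8 times and for Egr1 at 36 h. Each antibody and time had 1 library from livers of 5 mice, with no replicate, and the labels do not say if the mice were pooled. No sham-operated group was analysed here, so surgery and time cannot be told apart from regeneration.

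Mitosis is driven by Cdk1 bound to cyclin A and cyclin B, and ends when the anaphase-promoting complex marks the cyclins for destruction. Genes of this program are silent in resting cells and are transcribed late in the cell cycle, through CCAAT boxes bound by NF-Y and through cell cycle genes homology regions (CHR), which recruit the DREAM repressor in resting cells and the B-Myb and FoxM1 activators in dividing ones. Hepatocytes of adult liver are mostly quiescent, and after partial hepatectomy they enter the cycle, replicate their DNA and divide.

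Promoter sequences are shown for the 4 genes with C/EBP regions at their start in the most lists, each list held to its 20061 top-scoring regions. Those of Cdc2a and Ccnb2, which had no region in these shortened lists, were added after their values were seen. They come from the RefSeq promoter table of the assembly GRCm38.p6 and hold the 250 bases before the start, 5′ to 3′ on the gene's strand. Capitals mark CCAAT, the CHR letters TTTGAA or TTCGAA, and the C/EBP-type letters TTNCNNAA, on either strand (so ATTGG is a CCAAT and TTCAAA is a TTTGAA). Cks2 is at chr13:51644982-51645231, Ube2c at chr2:164769679-164769928 and Nusap1 at chr2:119618048-119618297, all on the plus strand. Nuf2 is at chr1:169531465-169531714, Cdc2a at chr10:69352913-69353162 and Ccnb2 at chr9:70421555-70421804, all on the minus strand.
Cks2: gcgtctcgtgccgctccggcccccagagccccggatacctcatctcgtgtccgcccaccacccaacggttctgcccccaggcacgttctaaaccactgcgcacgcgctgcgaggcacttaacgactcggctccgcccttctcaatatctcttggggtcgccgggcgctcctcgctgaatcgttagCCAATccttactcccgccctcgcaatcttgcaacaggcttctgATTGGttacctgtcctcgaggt
Ube2c: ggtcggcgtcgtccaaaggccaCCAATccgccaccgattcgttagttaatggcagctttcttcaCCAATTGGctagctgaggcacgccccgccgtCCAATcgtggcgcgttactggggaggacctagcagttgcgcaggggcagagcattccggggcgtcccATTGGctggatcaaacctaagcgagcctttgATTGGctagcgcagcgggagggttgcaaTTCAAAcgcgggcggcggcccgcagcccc
Nuf2: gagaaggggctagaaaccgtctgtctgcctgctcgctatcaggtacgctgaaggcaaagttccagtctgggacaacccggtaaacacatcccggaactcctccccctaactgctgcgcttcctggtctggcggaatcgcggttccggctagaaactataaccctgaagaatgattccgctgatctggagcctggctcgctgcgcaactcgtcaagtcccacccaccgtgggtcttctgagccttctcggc
Nusap1: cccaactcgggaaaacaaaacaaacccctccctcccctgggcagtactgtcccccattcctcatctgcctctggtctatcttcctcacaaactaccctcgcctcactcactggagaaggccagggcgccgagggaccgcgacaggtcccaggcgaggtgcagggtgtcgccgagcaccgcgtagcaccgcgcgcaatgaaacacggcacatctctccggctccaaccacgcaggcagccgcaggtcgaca
Cdc2a: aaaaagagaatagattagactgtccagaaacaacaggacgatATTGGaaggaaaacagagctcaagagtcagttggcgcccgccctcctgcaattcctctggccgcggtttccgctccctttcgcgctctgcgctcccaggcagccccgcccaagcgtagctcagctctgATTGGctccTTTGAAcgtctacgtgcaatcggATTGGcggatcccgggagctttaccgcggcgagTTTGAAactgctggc
Ccnb2: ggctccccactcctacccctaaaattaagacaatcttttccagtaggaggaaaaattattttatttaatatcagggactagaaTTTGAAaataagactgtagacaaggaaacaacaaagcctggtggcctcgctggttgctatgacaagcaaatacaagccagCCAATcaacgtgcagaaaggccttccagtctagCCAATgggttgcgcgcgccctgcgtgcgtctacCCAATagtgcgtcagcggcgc

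CCAAT and CHR letters were frequent in these promoters. Of the 30 genes, 24 had a promoter in the table, and Ccna2, Aurkb, Foxm1, Kif20a, Tpx2 and Cdc25c had no entry. In 300-base windows, from 250 bases before the start to 50 after it, CCAAT was found on either strand in 20 of 24 (83.3%), against 37.4% of all 32851 promoters. TTTGAA was found in 17 (70.8%) against 17.9%. TTCGAA was found in Top2a, Bub1 and Bub1b, against 1.56% of all promoters. CCAAT and either CHR form stood together in 17 of 24 (70.8%), against 7.53%. In Cdc2a the letters CCAAT began 208, 80 and 48 bases before the start, all on the minus strand, and TTTGAA 71 and 15 bases before it. In Ccnb2, CCAAT began 87, 54 and 21 bases before the start. This close spacing, 31 to 34 bases between starts on the same strand, was also found in Ccnb1, Aurka, Cdca8, Ube2c and Hmmr, which makes 7 of 24 (29.2%) against 0.895% of all promoters. The spacing was chosen after the sequences were seen.

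Other motifs were found in fewer of these promoters. TTNCNNAA, the C/EBP-type letters, was found in 5 of 24 promoters (20.8%), namely those of Top2a, Mki67, Bub1b, Cenpa and Kif11, against 40.7% of all promoters. GCGNGGGCG, the Egr1-type letters, was found in Ccnb1, Mki67, Birc5, Ndc80 and Cks2 (20.8%), against 5.55%. TTTNGCGC, an E2F-type form, was found in Cdc2a and Racgap1 (8.33%), against 1.38%. Nuf2 and Nusap1 held none of the 6 motifs in the window, and Cks2, Ube2c, Cdc2a and Ccnb2 held no TTNCNNAA. Motifs were searched on both strands and matches of different motifs may overlap, as TTTGAA and TTNCNNAA do in Kif11. A match is a run of letters and not a measured site. The promoter table and the ChIP files use different genome builds, so no ChIP region was placed inside these sequences.

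The Pol II values are the deposited signed signal over a gene body divided by its width, in signal units per bp, and positions are in the mouse build mm9. In these files the body begins about 500 bp past the gene start. From the values, a background had been removed, and a value below 0 is read here as signal under that background. Of all measured genes, 51.7% to 69.2% lay below 0 in a library, with the largest share at 3 h, and the 3 h library was the only one whose signal summed to below 0. No read counts accompany the signal, so its depth and counting error are unknown. To allow for such shifts each value was also given as a percentile among the 20933 genes of its own library. In whole liver, fewer cells that transcribe a gene and less Pol II per cell cannot be told apart.

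Pol II over most of the G2/M and mitosis genes was highest in the 36 h or the 48 h library. In 16 of the 30 genes the highest of the 8 values was at 36 h, against 9.65% of all measured genes, and in 7 it was at 48 h, against 4.62%. Together this was 23 of 30, against 14.3% of all genes. The median gene of the group stood at percentile 35.2 (0 h), 31.5 (3 h), 45.3 (8 h), 30.3 (16 h), 31.1 (24 h), 71.5 (36 h), 64.0 (48 h) and 39.1 (168 h). At 168 h the median gene stood near its 0 h rank. Signal above 0 was found in 22 genes at 36 h and 17 at 48 h, against 10, 0, 10, 4, 6 and 10 genes at 0, 3, 8, 16, 24 and 168 h. Of all measured genes 40.4% and 38.9% lay above 0 at 36 and 48 h, and 36.1%, 26.4%, 41.6%, 36.6%, 41.2% and 44.8% at the others. All 30 lay below 0 at 3 h, and 17 had their lowest value there, against 36.1% of all genes.

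**Figure D1:**
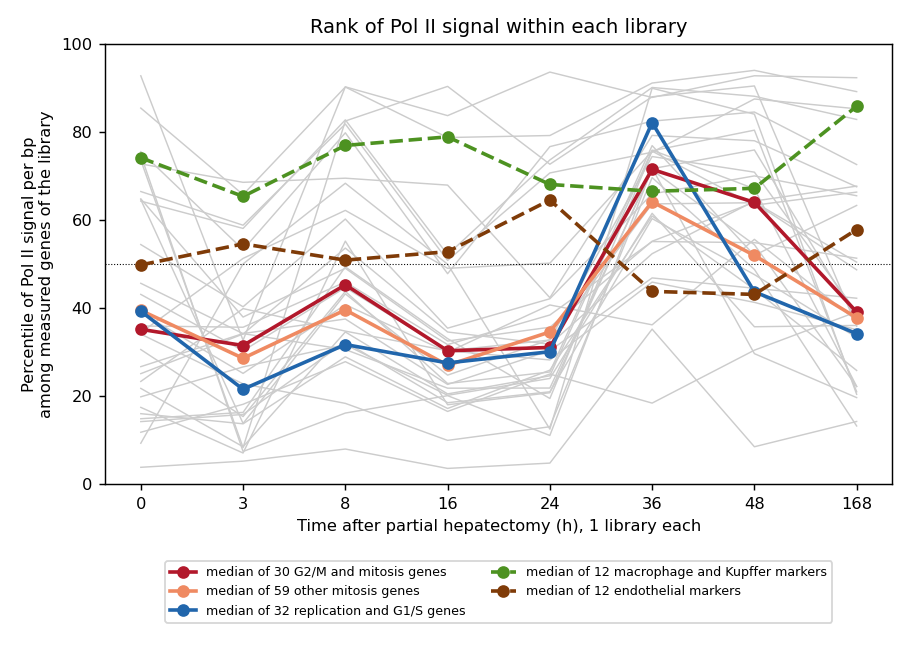
Percentile of Pol II signal per bp among the 20933 measured genes of each library (vertical axis) by time after partial hepatectomy in hours (horizontal axis, evenly spaced times, 1 library each). Grey lines are the 30 genes and coloured lines the medians of gene lists; the median of the 30 stood at 71.5 at 36 h and 64.0 at 48 h, and between 30.3 and 45.3 in the remaining libraries.

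In 15 of the 30 genes both late values, at 36 h and at 48 h, lay above all 6 others, which held for 2.10% of all measured genes. These 15 were Ccna2, Ccnb2, Cdc2a, Top2a, Plk1, Bub1b, Cdc20, Birc5, Kif20a, Tpx2, Prc1, Cdca8, Ube2c, Hmmr and Racgap1. Of the 15, Plk1, Bub1b, Cdca8 and Racgap1 lay below 0 at 48 h. By percentile it was 18 genes, with Cenpe, Ttk and Ndc80 added, against 1.99%. The added genes lay below 0 in all 8 libraries, so their order is among values under the background. Neither late library alone decided this late course. Without the 36 h library, 18 of 30 were highest at 48 h, against 6.13% of all genes. Without the 48 h library, 20 of 30 were highest at 36 h, against 10.2%. Without the 3 h library the count highest at 36 or 48 h was 23, against 17.2%. The 36 h value lay above the 24 h value in 27 of 30 genes, against 45.2% of all genes.

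**Figure D2:**
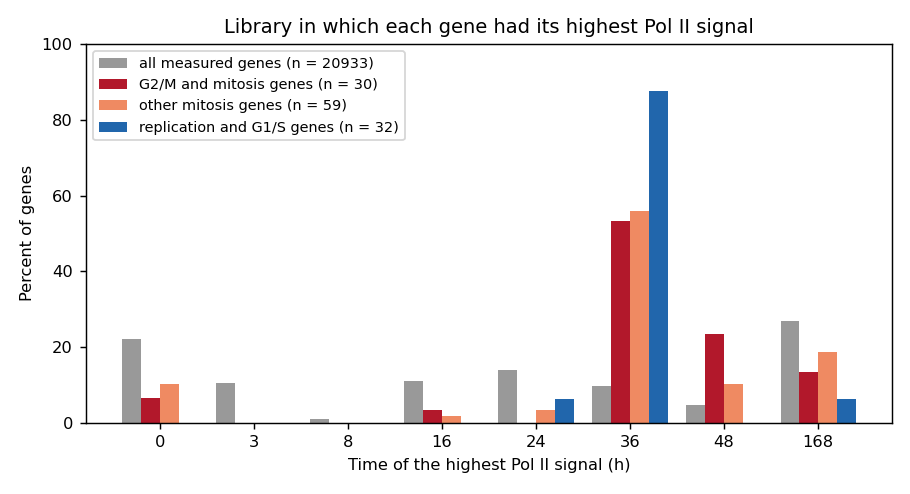
Percent of genes (vertical axis) whose highest Pol II signal per bp was in the library of each time (horizontal axis, hours), for all measured genes and 3 gene lists. Bars are shares of single genes with no error; 16 of the 30 G2/M and mitosis genes were highest at 36 h and 7 at 48 h.

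Most of the genes did not pass 0.5 units per bp even then, and neither did most measured genes. Signal above 0.5 units per bp, a level that 19.7% of measured genes passed at 36 h and 16.3% at 48 h, was reached by 6 of 30 genes at 36 h and 7 at 48 h. In the libraries of 0, 3, 8, 16, 24 and 168 h the counts were 2 (background 18.8%), 0 (14.7%), 2 (16.1%), 2 (20.5%), 1 (17.2%) and 2 (12.9%). Over all libraries 7 genes passed it at least once, against 29.8% of all genes: Cdc20, Cks2, Aurka, Cdc2a, Ube2c, Kif20a and Cenpa. Cks2 passed it in every library but 3 h, and Cdc20 at 0, 8, 36, 48 and 168 h. Aurka passed it at 16, 36 and 48 h, Cdc2a, Ube2c and Kif20a at 36 and 48 h, and Cenpa at 48 h. For the last 4 no library outside 36 and 48 h passed, as in 1.30% of all measured genes. The values nearest the limit were 0.520 for Ube2c at 48 h just above it and 0.453 for Ccnb2 at 36 h just below it. The other 23 genes stayed at or under it in every library, and Bub1, Cenpe, Foxm1, Ttk, Ndc80 and Cdc25c were below 0 in all 8.

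**Figure D3:**
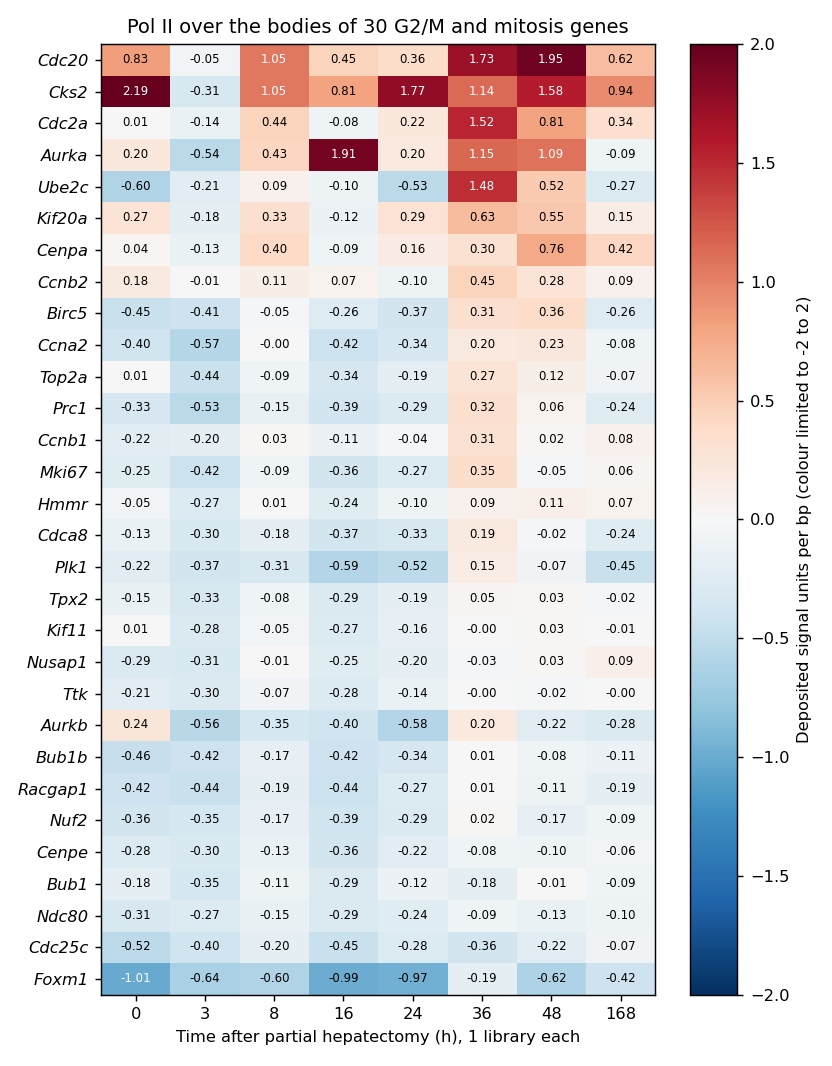
Pol II signal per bp of the 30 genes (lines, ordered by the mean of 36 and 48 h) in the 8 libraries (columns, hours after partial hepatectomy). Numbers are the deposited signal units per bp and colour runs from -2 to 2; the 36 h and 48 h columns hold 22 and 17 values above 0.

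Cdc2a, which encodes the mitotic kinase Cdk1 (chr10:68801073-68815151, minus strand), carried 0.00550 signal units per bp at 0 h, -0.137 (3 h), 0.442 (8 h), -0.0783 (16 h), 0.218 (24 h), 1.52 (36 h), 0.812 (48 h) and 0.344 (168 h). Its 36 h and 48 h values did not overlap the other 6, and it stood at percentile 90.1 and 88.1 there, against 64.3 at 0 h. The cyclins that Cdk1 binds had lower signal. Ccnb2, a B-type cyclin (chr9:70255500-70268854, minus strand), had 0.453 at 36 h and 0.281 at 48 h, and between -0.103 and 0.180 at the other times. Ccnb1, the other mitotic B-type cyclin, had its highest value of 0.310 at 36 h, but its 48 h value of 0.0214 lay below those of 8 h (0.0259) and 168 h (0.0823). Ccna2, cyclin A, had 0.196 at 36 h and 0.225 at 48 h, and from -0.572 to -0.00199 elsewhere. Exosc9, which overlaps the body of Ccna2, had 0.0532 at 36 h and -0.0225 at 48 h, and ChIP reads carry no strand to part them.

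Cks2 and Cdc25c, further regulators of Cdk1, did not have this course. Cks2, a small subunit of Cdk1 complexes (chr13:51741195-51746023, plus strand), carried 2.19 (0 h), -0.313 (3 h), 1.05 (8 h), 0.812 (16 h), 1.77 (24 h), 1.14 (36 h), 1.58 (48 h) and 0.941 (168 h). Its highest value was the 0 h library's, but by percentile it was highest at 24 h (93.6), with 92.8 both at 0 h and at 48 h. The 36 h value lay inside the range of the other times. Cdc25c, the phosphatase that activates Cdk1, was below 0 throughout, from -0.521 at 0 h to -0.0729 at 168 h.

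Both genes of the anaphase-promoting step passed 0.5 at 36 and 48 h. Ube2c, the ubiquitin-conjugating enzyme of that complex (chr2:164595930-164598402, plus strand), carried -0.604 (0 h), -0.208 (3 h), 0.0929 (8 h), -0.101 (16 h), -0.533 (24 h), 1.48 (36 h), 0.520 (48 h) and -0.269 (168 h). It stood at percentile 12.5 at 24 h and 90.0 at 36 h, and its late values did not overlap the rest. Cdc20, the activator of the complex (chr4:118105509-118109399, minus strand), carried 0.830 (0 h), -0.0496 (3 h), 1.05 (8 h), 0.447 (16 h), 0.363 (24 h), 1.73 (36 h), 1.95 (48 h) and 0.624 (168 h). Both late values were the highest, from a level already at percentile 85.4 at 0 h. Elovl1, a fatty acid elongase gene within 1 kb of the Cdc20 body, had 5.02 at 36 h and 4.34 at 48 h and at most 1.87 elsewhere, and its part in the Cdc20 values was not tested.

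Among the mitotic kinases other than Cdk1, Aurka alone passed 0.5. This gene of the spindle pole kinase Aurora A (chr2:172181699-172195455, minus strand) carried 0.204 (0 h), -0.537 (3 h), 0.429 (8 h), 1.91 (16 h), 0.196 (24 h), 1.15 (36 h), 1.09 (48 h) and -0.0929 (168 h). Its highest value was at 16 h, also after rescaling, and rested on 1 library, as every value here does. The libraries before and after it gave 0.429 and 0.196. By percentile 48 h (90.5) and 16 h (90.4) stood at nearly the same rank. Cstf1, which starts within 1 kb of Aurka, had 0.212 at 16 h. Plk1, the Polo-like kinase of mitotic entry, had its only value above 0 at 36 h (0.152) and -0.0711 at 48 h, with -0.591 to -0.220 elsewhere. Aurkb, the kinase of the chromosomal passenger complex, had 0.243 at 0 h and 0.198 at 36 h and was below 0 in the other 6 libraries.

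The spindle checkpoint genes had little signal at any time. Bub1b, which encodes the checkpoint protein BubR1, had 0.00767 at 36 h and -0.0807 at 48 h, above its -0.459 to -0.111 at the other times. Ttk, the checkpoint kinase Mps1, lay between -0.297 and -0.00228, and Bub1 between -0.353 and -0.0128. Ttk was highest at 168 h and Bub1 at 48 h.

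Of the centromere and kinetochore genes, Cenpa alone passed 0.5. It encodes the centromeric histone H3 variant (chr5:30969794-30976773, plus strand) and carried 0.0440 (0 h), -0.130 (3 h), 0.400 (8 h), -0.0926 (16 h), 0.160 (24 h), 0.301 (36 h), 0.758 (48 h) and 0.420 (168 h). The 48 h value was highest, while that of 36 h lay under those of 8 h and 168 h. Birc5, survivin of the passenger complex, had 0.314 at 36 h and 0.360 at 48 h and was below 0 in the other 6 libraries. Cdca8, borealin of the same complex, was above 0 at 36 h only (0.189), where 9930104L06Rik, which starts within 1 kb of it, had 0.686. Nuf2 of the Ndc80 complex was also above 0 at 36 h only (0.0221, percentile 61.5). Cenpe, a kinetochore motor, and Ndc80 had no value above 0.

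Kif20a, a kinesin of the central spindle, led the spindle and cytokinesis genes. It carried 0.269 (0 h), -0.182 (3 h), 0.328 (8 h), -0.123 (16 h), 0.292 (24 h), 0.628 (36 h), 0.546 (48 h) and 0.149 (168 h), so that its late values did not overlap the rest. Brd8, a neighbour within 1 kb, had 0.485 and 0.509 at 36 and 48 h. Prc1, which bundles the microtubules of the central spindle, had 0.320 at 36 h and 0.0637 at 48 h, and was below 0 elsewhere. Rccd1 beside it had 1.22 at 36 h and 0.183 at 48 h. Hmmr, Tpx2 and Racgap1, genes of spindle assembly and cytokinesis, each had both late values above the other 6, at 0.0863, 0.0510 and 0.0149 at 36 h. Kif11, the motor that parts the spindle poles, and Nusap1, a microtubule-binding protein, ranged only from -0.284 to 0.0285 and from -0.305 to 0.0944.

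Top2a and Mki67, which act on mitotic chromosomes, had 0.269 and 0.355 at 36 h. Top2a, topoisomerase II alpha, had 0.122 at 48 h and at most 0.0104 at the other times. Mki67, the gene of the proliferation antigen Ki-67, had -0.0450 at 48 h, so only its 36 h value stood above the rest, the next being 0.0552 at 168 h. Foxm1, the transcription factor that activates many mitotic genes, was below 0 in every library. Its least negative value, -0.191 at 36 h (percentile 35.2), lay above -1.01 to -0.416 at the other times (percentiles 3.61 to 14.3).

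Against the single 0 h library, which all these comparisons share, changes were taken on log2(signal per bp + 0.5) after rescaling, with values below 0 set to 0, which understates changes of low genes. At 36 h, 3 of 30 genes were 2-fold or more higher, against 4.27% of all genes: Cdc2a by 1.80, Ube2c by 1.78 and Aurka by 1.12 on the log2 scale. At 48 h it was 5 genes, against 3.58%: Cdc2a by 1.42, Aurka by 1.30, Cenpa by 1.27, Cdc20 by 1.09 and Ube2c by 1.06. Aurka at 16 h (1.40, background 3.65%) and Cdc2a and Cenpa at 168 h (1.07 and 1.14, background 5.48%) also passed, and none of the 30 did at 3, 8 or 24 h (4.78%, 3.30% and 4.92%). A 2-fold or larger decrease was found for Cdc20 and Cks2 at 3 h (-1.25 and -2.21, background 6.76%) and for Cks2 at 16 h (-1.16, background 4.11%). None was found at 8, 24, 36, 48 or 168 h, against 4.78%, 5.15%, 4.24%, 4.90% and 6.19% of all genes. Single libraries allow no test of these changes.

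Tests with limma were run over the 4761 genes above 0.5 in at least 2 libraries after rescaling, with Benjamini-Hochberg adjustment. Counts above 0.5 elsewhere in the text use values before rescaling. Libraries of different times stood in for replicates. Comparing 36 and 48 h with the other 6 times called 0 genes (0%), the smallest adjusted p being 0.196. At an unadjusted p under 0.05 it was 65 genes (1.37%). Of the group 7 genes were tested. Ube2c and Kif20a passed the filter only at 36 and 48 h, and Aurka, Cdc2a and Cenpa would have failed it without those libraries. For all of these the filter itself favoured a late difference, which therefore supports nothing. The limma log2 differences were 1.38 (SE 0.32) for Ube2c, 1.19 (SE 0.41) for Cdc2a, 1.14 (SE 0.46) for Cdc20, 1.01 (SE 0.48) for Aurka, 0.63 (SE 0.35) for Kif20a, 0.53 (SE 0.43) for Cenpa and 0.27 (SE 0.58) for Cks2. The smallest adjusted p among them was 0.776, for Ube2c. A smooth trend over the 8 times called 1 gene (0.0210%), Rgs16, named after its value was seen, and none of the group, with 458 genes at an unadjusted p under 0.05 (9.62%). No gene of the group passed the adjusted threshold in either test. On simulated data with a planted log2 change of 2, larger than any difference listed here, the late comparison found 116 of 200 genes. The trend found 0 of 200.

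With no filter on low values, limma called 15 of 20933 genes in the late comparison (0.0717%, and 1.36% at an unadjusted p under 0.05), all higher, and 3 of them belonged to the group. These were Birc5 (log2 difference 0.71, adjusted p = 0.00736), Ccna2 (0.48, adjusted p = 0.0104) and Tpx2 (0.10, adjusted p = 0.0238). All 3 were set to 0 in the other 6 libraries, so no spread was measured there. On percentiles, with no filter, 30 of 30 genes were higher late, against 45.4% of all genes, and 15 had an unadjusted p under 0.05, against 1.97% of all genes. limma called 2 genes there (0.00955%), neither of the group.

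A further 59 mitosis genes, listed for their function with earlier results of these data known, had a like course. Their highest value was at 36 h in 33 and at 48 h in 6, and their median percentile was 64.2 at 36 h and 52.0 at 48 h. Hjurp, the chaperone of Cenpa, carried 0.535 (0 h), -1.30 (3 h), 0.564 (8 h), 2.06 (16 h), 0.714 (24 h), 3.98 (36 h), 0.824 (48 h) and 1.06 (168 h). Like Aurka it had a high 16 h value, here below that of 36 h. Of the 4761 genes tested with limma, 31.2% had their highest value at 16 h before rescaling and 10.5% after it. Of 32 genes of replication and the G1/S step, 28 were highest at 36 h and 0 at 48 h, and their median percentile was 82.1 at 36 h and 43.7 at 48 h. The 36 h value lay above the 48 h value in 32 of 32 replication genes and in 20 of 30 G2/M and mitosis genes, against 47.6% of all genes. By percentile the mitosis count was 17, against 40.0%. Whether these shares differ between the lists was not tested.

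Genes that govern the program varied in their course. Of 12 measured anaphase-promoting complex subunits and partners, 4 were highest at 36 or 48 h. Of 13 measured genes of the DREAM, B-Myb-MuvB and NF-Y complexes it was 3, against 14.3% of all genes. Among 9 genes that control the step from G2 into mitosis, brakes and activators alike, it was 5. Cdkn1a, the Cdk inhibitor p21, was not among them, with 2.22 (0 h), 7.14 (3 h), 1.81 (8 h), 13.1 (16 h), -0.105 (24 h), 4.60 (36 h), 2.68 (48 h) and -0.287 (168 h). Its 16 h peak was in the library in which Aurka, and 31.2% of the 4761 genes tested with limma, had their highest signal per bp.

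The tissue's markers were those of liver, with 11 measured hepatocyte markers at a median percentile of 99.5 at 36 h and 99.8 at 48 h. Late highest values were found for 2 of 11 hepatocyte markers, against 14.3% of all genes. Of 12 macrophage and Kupffer cell markers 1 was highest at 36 or 48 h, with a median percentile of 74.2 at 0 h, 66.6 at 36 h and 67.2 at 48 h. For endothelial markers it was 0 of 12, for stellate cell and fibroblast markers 2 of 12, for lymphocyte markers 1 of 10 and for cholangiocyte markers 0 of 7, with median percentiles at 36 h of 43.8, 33.5, 16.2 and 17.0. Which cells carried the Pol II over the mitosis genes was not tested. Of the 30 genes, 17 had no other gene within 1 kb of the body. Of these, 14 were highest at 36 or 48 h.

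C/EBPbeta regions lay at the starts of several of these genes in the 3 h and 36 h lists. With each list held to its 20061 top-scoring regions, a C/EBPbeta region centre lay within 1 kb of the start of 9 of 30 genes at 3 h and 10 at 36 h, against 19.5% and 18.3% of all measured genes. Among the genes tested for Pol II the shares were higher still, 37.9% and 35.2%. In the lists of 0, 8, 16, 24, 48 and 168 h the counts were 2 (9.23%), 4 (11.3%), 3 (11.8%), 1 (8.77%), 6 (13.2%) and 2 (12.8%). For C/EBPalpha the counts from 0 to 168 h were 3 (9.87%), 5 (12.7%), 3 (9.42%), 5 (12.5%), 2 (8.08%), 5 (13.2%), 7 (14.1%) and 7 (13.7%). At 36 h the C/EBPbeta genes were 33.3% of the group. The full lists, which differ in length, gave 8 (18.5%), 11 (27.6%), 7 (18.3%), 5 (15.7%), 7 (14.4%), 15 (25.1%), 6 (13.4%) and 5 (15.5%) genes for C/EBPbeta from 0 to 168 h, so the gap between 36 h and 24 h depends on where the lists end. There 15 of 30 at 36 h stood against 46.3% of the genes tested for Pol II.

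**Figure D4:**
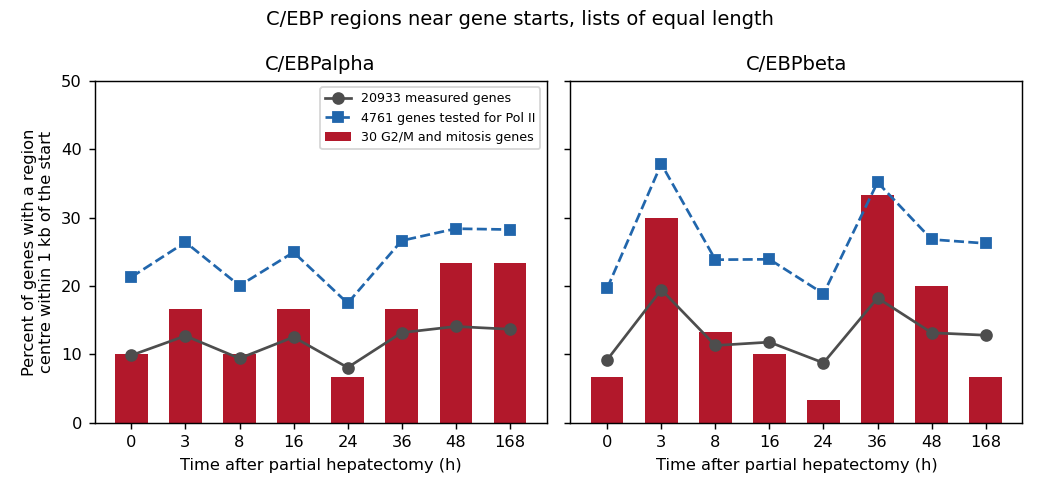
Percent of genes (vertical axis) with a C/EBPalpha (left) or C/EBPbeta (right) region centre within 1 kb of the start by time in hours, lists held to 20061 regions. Bars are the 30 G2/M and mitosis genes, lines all 20933 measured genes and the 4761 tested for Pol II; the C/EBPbeta bars at 3 h and 36 h stand for 9 and 10 of 30 genes.

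Cks2, whose Pol II signal was high in the 0 h library, was the single gene with a region in all 16 lists. At 36 h its C/EBPalpha region (chr13:51740528-51740553) ranked 480 in the list and its centre lay 154.5 bp before the start. Its C/EBPbeta regions ranked 859 at 36 h and 849 at 16 h, and no other gene of the group had a region among the top 1000 of a list. Ube2c, whose promoter is printed above with its 6 CCAAT matches, had regions in 7 C/EBPalpha and 5 C/EBPbeta lists. For Ube2c, C/EBPbeta was listed at 3, 8, 16, 36 and 48 h, and in the full lists at 0 and 24 h as well. Nuf2 had regions in 5 lists of each factor, both at 3, 8, 36, 48 and 168 h. Nusap1 had regions in 4 lists of each factor, for C/EBPbeta at 3, 8, 36 and 48 h. Both of these genes stayed under 0.5 for Pol II in all 8 libraries.

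C/EBPbeta at 3 or 36 h marked 12 of the 30 genes, against 22.3% of all genes: Ube2c, Birc5, Nusap1, Bub1b, Cdca8, Nuf2, Prc1, Ttk, Ccnb1, Hmmr, Kif11 and Cks2. At both 3 and 36 h it was 7 genes, against 15.4%. For 6 of the 12, Birc5, Cdca8, Prc1, Ccnb1, Hmmr and Kif11, no other shortened C/EBPbeta list held a region, against 6.27% of all genes. Birc5, Ccnb1 and Kif11 had no C/EBPalpha region in these lists either, against 4.50%. Both statements hold for the shortened lists. In the full ones Cdca8 also had C/EBPbeta at 0 and 8 h, and Kif11 had C/EBPbeta at 24 h and C/EBPalpha at 36 h. There 7 genes had C/EBPbeta at 3 or 36 h and at no other time, against 8.41% of all genes: Birc5, Plk1, Prc1, Ccnb1, Hmmr, Racgap1 and Cdc2a. Cenpa brought the genes with any region to 13, with C/EBPbeta at 0 and 16 h and C/EBPalpha at 3 and 24 h. The other 17 genes, against 71.7% of all genes, had no region of either factor within 1 kb in these lists. In the full lists it was 12, against 62.1%, since Cdc2a, Plk1 and Racgap1 had C/EBPbeta at 36 h, and Ccnb2 and Tpx2 at 0 h. Ccna2, Top2a, Aurka, Cdc20 and Kif20a, with both late Pol II values above 0, had none in the full lists either. Of the 7 genes that passed 0.5 for Pol II, Cks2, Ube2c and Cenpa had a C/EBP region at the start in the shortened lists and 4 did not.

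**Figure D5:**
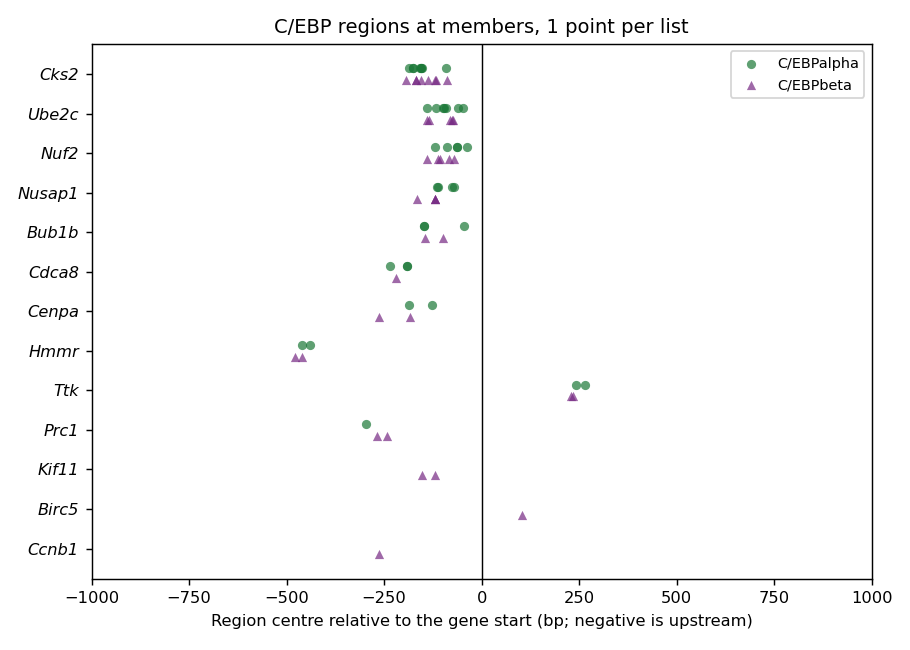
Distance in bp from the gene start to the centre of each C/EBP region within 1 kb (horizontal axis, negative upstream), for the 13 genes with a region in the lists held to 20061 regions (vertical axis), 1 point per list. Of 74 points 69 lie upstream, between -479.5 and 265.5 bp.

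The regions lay close before the start. Of 74 region entries at these 13 genes, 69 were upstream, and the median centre was 123.5 bp before the start. The 5 downstream ones belonged to Ttk (4 lists, 228 to 265.5 bp) and Birc5 (1 list, 104.5 bp). At Hmmr the regions centred 439 to 479.5 bp before the start. The median rank was 11240 of 20061. Held to the top 20% of each list by score, only Cks2 had C/EBPbeta within 1 kb in the 3 h and 36 h lists, against 4.44% and 4.52% of all genes. Nudcd2 near Hmmr, Oip5 near Nusap1, Rccd1 near Prc1 and SNORA2 near Cks2 lie within 1 kb of these bodies. So do 9930104L06Rik near Cdca8 and AC137605.3, which overlaps Kif11. A region may thus be listed for more than 1 gene.

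Within 10 kb, the shortened C/EBPbeta lists gave 8 (26.3% of all genes), 12 (35.1%), 6 (28.6%), 7 (28.6%), 5 (25.7%), 13 (34.1%), 10 (30.3%) and 8 (29.5%) of the 30 genes from 0 to 168 h. C/EBPalpha gave 6 (26.7%), 9 (29.3%), 6 (27.1%), 8 (29.0%), 5 (25.04%), 9 (29.9%), 11 (30.96%) and 13 (30.2%). The highest count of C/EBPalpha was thus at 168 h and that of C/EBPbeta at 36 h, and both were lowest at 24 h. Cdc20 had no region within 1 kb, but had 1 or more within 10 kb in all 8 lists of each factor. At 36 h these centred 8161.5 bp (C/EBPalpha) and 8183 bp (C/EBPbeta) downstream of the start, past the far end of the Cdc20 body. Birc5 had a C/EBPalpha region within 10 kb in all 8 lists, and Mki67 in 6. Egr1, an early growth response factor measured at 36 h only, had no peak centre within 1 kb of any of the 30 starts, against 2.22% of all genes. Within 10 kb it had a peak near Hmmr, Birc5 and Cks2, against 10.9% of all genes. Their centres lay 4882.5, 5972.5 and 9500.5 bp upstream.

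With 1 library per antibody and time, a difference between times cannot be told apart from a difference between libraries, and no p-value here measures the spread of replicate livers.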

How the data were processed

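Of 26 ChIP-seq samples, 25 were used, with groups taken from each title's antibody and time, and the mock immunoprecipitation was not analysed here. The members and lists were chosen with earlier results of these data known. Per the submitters' processing notes, the tools were Bowtie 0.12.7 and MACS 1.4.1, their roles unstated, and the build was mm9. Not given in the sources used here were filters, control libraries and how signal was scaled. The deposited Pol II files give a signed score per gene body, from its values less a background, and no count. The deposited C/EBP and Egr1 lists give regions with a score by the authors, used here only to rank regions within a list.

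Of 31804 Pol II gene entries, 20933 were measured, and 10871 were left out because the entry ended before it started (6613), its body was under 500 bp (3658), its name was shared (400) or it lay on another sequence (200). The score was divided by the body width, and starts were moved back by 500 bp against the strand. The length of a RefSeq gene of assembly GRCm38.p6 less the body width was most often 501 bp. For tests, each library was scaled to the median ratio of the 1472 genes that passed 0.5 in all 8. Relative to 0 h this shifted log2 values by 0.26 (3 h), 0.33 (8 h), -0.32 (16 h), 0.41 (24 h), -0.01 (36 h), 0.33 (48 h) and 0.97 (168 h), so changes stand relative to these genes. A value under 0 became 0, and 0.5 was added before the log2. limma 3.58.1 in R 4.3.3 fitted a spline of the time rank (natural, 3 degrees of freedom), and the mean of 36 and 48 h against the other 6 times, with a threshold of 0.05. The fits were tested on simulated data with 200 planted changes. At a planted log2 change of 2 the late comparison recovered 116 and the trend 0, and at 4 they recovered 191 and 128. A gene that was not called may thus still have changed. The test planned for counts was not used, since the signal is not a count. Counts near starts use the region centre and lists held to 20061 regions, and Python 3.11.15 was used for these. All 30 genes could be named. Genes of other lists were named if past a test or among the 4 with the highest signal above 0.5 at 48 h, and neighbours beside a member. Cdc2a and Ccnb2 promoters were added after their values were seen. Other thresholds, pseudocounts, filters, scalings and left-out libraries were tried.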

Additional observations from a re-analysis of the deposited data

How the results depend on the processing

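The count of 23 genes highest at 36 or 48 h was 24 after rescaling and 25 by percentile, and 18 to 26 with each library left out in turn. These settings were chosen after the data were seen. The trend test called 1 gene, and 0 with a pseudocount of 0.05, with no filter or on percentiles, and 0 to 1 with a library left out. The late comparison called 0 genes, and 1 with a pseudocount of 0.05, 15 with no filter, 2 on percentiles and 0 to 1 with a library left out (1 without the 48 h library). The 7 genes above 0.5 in any library were 13 above 0.25 and 13 above the 75th percentile. At 36 h the 6 became 13 and 12, and at 48 h the 7 became 3 above 1. C/EBPbeta genes within 1 kb fell from 9 to 1 at 3 h and from 10 to 1 at 36 h in the top 20% of the lists by score. In the full lists they were 11 and 15, with 7 in place of 1 at 24 h and 8 in place of 2 at 0 h. The 3 genes within 10 kb of an Egr1 peak became 1 in the top 50% of the peaks by score. Starts from RefSeq were not run, as their build differs. No paired analysis was possible because each antibody and time had 1 sample. Depth is unknown, so low signal cannot be told apart from none.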
